A study of Mus musculus with 24 samples.

Results

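The genes described here are 41 genes of the cell cycle and of DNA replication, read in pancreatic islets of female NOD mice at 4 ages. They were taken as a list of named genes, chosen with earlier results of these data known. Each is represented by its brightest probe among those well above background in a channel on at least 6 of the 24 arrays. That rule kept 40 of the 41 genes out of 18085 genes tested; Ttk, a spindle checkpoint kinase, was above background on only 3 arrays and is not described further. By role they are 9 genes of replication licensing and the fork (Mcm2 to Mcm7, Cdc6, Cdt1, Pcna), 3 of nucleotide supply (Rrm1, Rrm2, Tyms), 5 of the entry into S phase (E2f1, Ccne1, Ccne2, Ccnd1, Ccnd2), the checkpoint kinase Chek1 and 22 measured genes of G2 and mitosis.

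Islets were isolated with collagenase from single female NOD/LtJ (NOD) mice, a strain with spontaneous autoimmune diabetes, with 6 mice in each of 4 age groups: 10 days of age, then 4, 12 and 20 weeks. Every array set the Cy5-labelled RNA of 1 NOD mouse against Cy3-labelled RNA pooled from the islets of 6 female NOD.B10Sn-H2b/J (NOD.B10) mice of the same age, a strain that shares the NOD background but carries another major histocompatibility haplotype and is the healthy control. The labels were read as 1 pool per age on all 6 arrays. A test of a ratio against 0 therefore leaves out the spread between control mice, and contrasts of ages also carry whatever set the pools apart. The dyes were not swapped, so a dye effect of a probe remains in its ratio at an age. Ratios are log2(NOD/pool), above 0 where the NOD mouse had more, and each mean ± SD is taken over n = 6 mice. A gene is called higher or lower where its Benjamini-Hochberg adjusted p in limma was under 0.05 and the difference was at least 2-fold.

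The share of probes detected well above background was 42.3% to 64.6% for NOD and 39.4% to 60.4% for the pools. The 12 week pool was the dimmest control (39.4% to 43.6%), and 20 week mice 5 (42.3%) and 6 (47.7%) were the dimmest NOD samples at that age. All 8 beta cell markers of the list used were detected in NOD islets at every age, as were all 7 acinar markers. In 11 pairs of arrays of different ages the ratios over all genes correlated below -0.3, down to -0.54. The labels state the dyes, and the direction was kept as they give it.

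Cells that enter the cycle first make cyclins D and E, which free E2F factors to switch on the genes of DNA synthesis. Cdt1 and Cdc6 load the MCM helicase onto origins, PCNA clamps the polymerase to the template, and ribonucleotide reductase and thymidylate synthase supply the nucleotides. Genes of G2 and mitosis are switched on later, largely through CCAAT boxes and the cell cycle homology region of their promoters. In islets these genes are known for being active while beta cells multiply in young animals and low in the adult, and dividing lymphocytes express the same genes. In bulk islet RNA, fewer cells of a type and less RNA per cell cannot be told apart.

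RefSeq promoter entries (GRCm38.p6, from 250 bases before to 50 after the start) matched 33 of the 41 genes by symbol; Tpx2, Kif20a, Ccna2, Aurkb, Mcm4, Ccnd2, Ccne2 and Ccnd1 had no match. The letters TTTGAA of the cell cycle homology region, read on both strands, were in 13 of 19 mitosis promoters (68.4%), in 1 of 11 replication promoters (9.09%) and in 18.1% of all 27025 promoters. CCAAT was in 17 of 19 mitosis promoters (89.5%), in 8 of 11 replication promoters (72.7%) and in 37.9% of all. For E2F the letters TTCCCGC were searched, and as another form of the site TTGGCGC; at least 1 of these was in 2 of 19 mitosis promoters (10.5%), in 7 of 11 replication promoters (63.6%) and in 6.93% of all. No motif contains another. The 150 bases before the start are printed for 5 of the 9 genes called higher at both 12 and 20 weeks. They were chosen after the matches were seen so that the homology region, CCAAT and E2F each appear at least once. All printed E2F matches are TTGGCGC, and TTCCCGC appears in none. Of the genes not printed, Birc5 has no match to any motif in its 300 bases, and Cdt1 has none in the 150 bases. Cenpe has 1 CCAAT match there, and Mcm5 has 2 CCAAT matches and 1 E2F match. Capitals mark matches to the letters CCAAT, to the cell cycle homology letters and to the E2F letters, on either strand.
Mki67 (chr7:135716380-135716529, minus strand): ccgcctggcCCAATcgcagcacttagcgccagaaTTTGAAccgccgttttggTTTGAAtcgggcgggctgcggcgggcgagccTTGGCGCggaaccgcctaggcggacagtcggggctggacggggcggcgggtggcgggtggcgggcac
Cdc20 (chr4:118437344-118437493, minus strand): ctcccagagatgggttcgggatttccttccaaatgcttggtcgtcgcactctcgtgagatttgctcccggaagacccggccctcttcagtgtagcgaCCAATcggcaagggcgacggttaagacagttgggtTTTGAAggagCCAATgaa
Ccnb2 (chr9:70421555-70421704, minus strand): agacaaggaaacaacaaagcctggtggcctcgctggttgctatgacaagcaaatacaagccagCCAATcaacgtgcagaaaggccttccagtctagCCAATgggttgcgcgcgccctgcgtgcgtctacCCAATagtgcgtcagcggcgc
Mcm3 (chr1:20820313-20820462, minus strand): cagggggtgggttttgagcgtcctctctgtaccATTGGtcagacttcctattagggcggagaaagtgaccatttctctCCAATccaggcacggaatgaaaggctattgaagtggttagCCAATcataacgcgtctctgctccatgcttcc
Mcm6 (chr1:128359706-128359855, minus strand): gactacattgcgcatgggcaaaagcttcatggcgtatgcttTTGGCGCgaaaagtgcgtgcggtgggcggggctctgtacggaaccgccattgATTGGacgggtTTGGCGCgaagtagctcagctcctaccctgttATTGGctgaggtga
Mki67 has 2 homology region matches, 1 CCAAT match and 1 E2F match in this window, and Cdc20 has 1 homology region match and 2 CCAAT matches. Ccnb2 and Mcm3 have 3 CCAAT matches each, while Mcm6 has 2 E2F and 2 CCAAT matches. In Ccnb2 both homology region matches, and in Mcm3 all 3 E2F matches, lie elsewhere in the 300-base entry. These matches are descriptions of letters; binding was not measured.

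The ratios of these genes were mostly below 0 at 4 weeks and above 0 at the 2 older ages. Their direction against 0 at 10 days depended on the normalization. With the loess used here most were below 0. With median centring 27 of 40 were above 0, but the median of the 40 (0.21) lay below that of all genes (0.38). With loess, 8 of the 40 had a mean above 0 at 10 days and 5 at 4 weeks, against 40 and 39 at the older ages. Their median ratio was -0.31 at both young ages, then 0.58 at 12 and 0.60 at 20 weeks, while that of all genes tested lay between -0.01 and 0.03. Called lower at 10 days were 3 genes (Cdc20, Kif20a, Cdt1), where 2.36% of all genes were called lower, and 0 were called higher by limma (background 1.61%), with 4 above 0 at an unadjusted p under 0.05. With median centring 0 were called lower (0.293% of all genes) and 2 higher (14.9% of all genes) at 10 days, so all 3 lower calls were lost. Above the median of all genes lay 13 of the 40 with that centring and 6 with loess. Called lower at 4 weeks were 2 genes (Cdc20, Kif20a; background 0.879%), and 0 were called higher (background 1.91%), with 1 at an unadjusted p under 0.05. Called higher at 12 weeks were 11 genes (background 2.09%) and called lower 0 (background 1.42%), with 0 at an unadjusted p under 0.05 in limma as well. Called higher at 20 weeks were 10 genes (background 3.87%) and called lower 0 (background 1.23%), with 1, Ccnd2, at an unadjusted p under 0.05. Of the genes higher at 12 weeks, 9 were also higher at 20 weeks: Mcm3, Mcm5, Mcm6, Cdt1, Mki67, Ccnb2, Birc5, Cdc20 and Cenpe. Mcm7 and Kif20a were called at 12 weeks and not at 20 weeks, and Mcm4 at 20 weeks and not at 12 weeks; 28 of the 40 were called at no age.

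**Figure D1:**
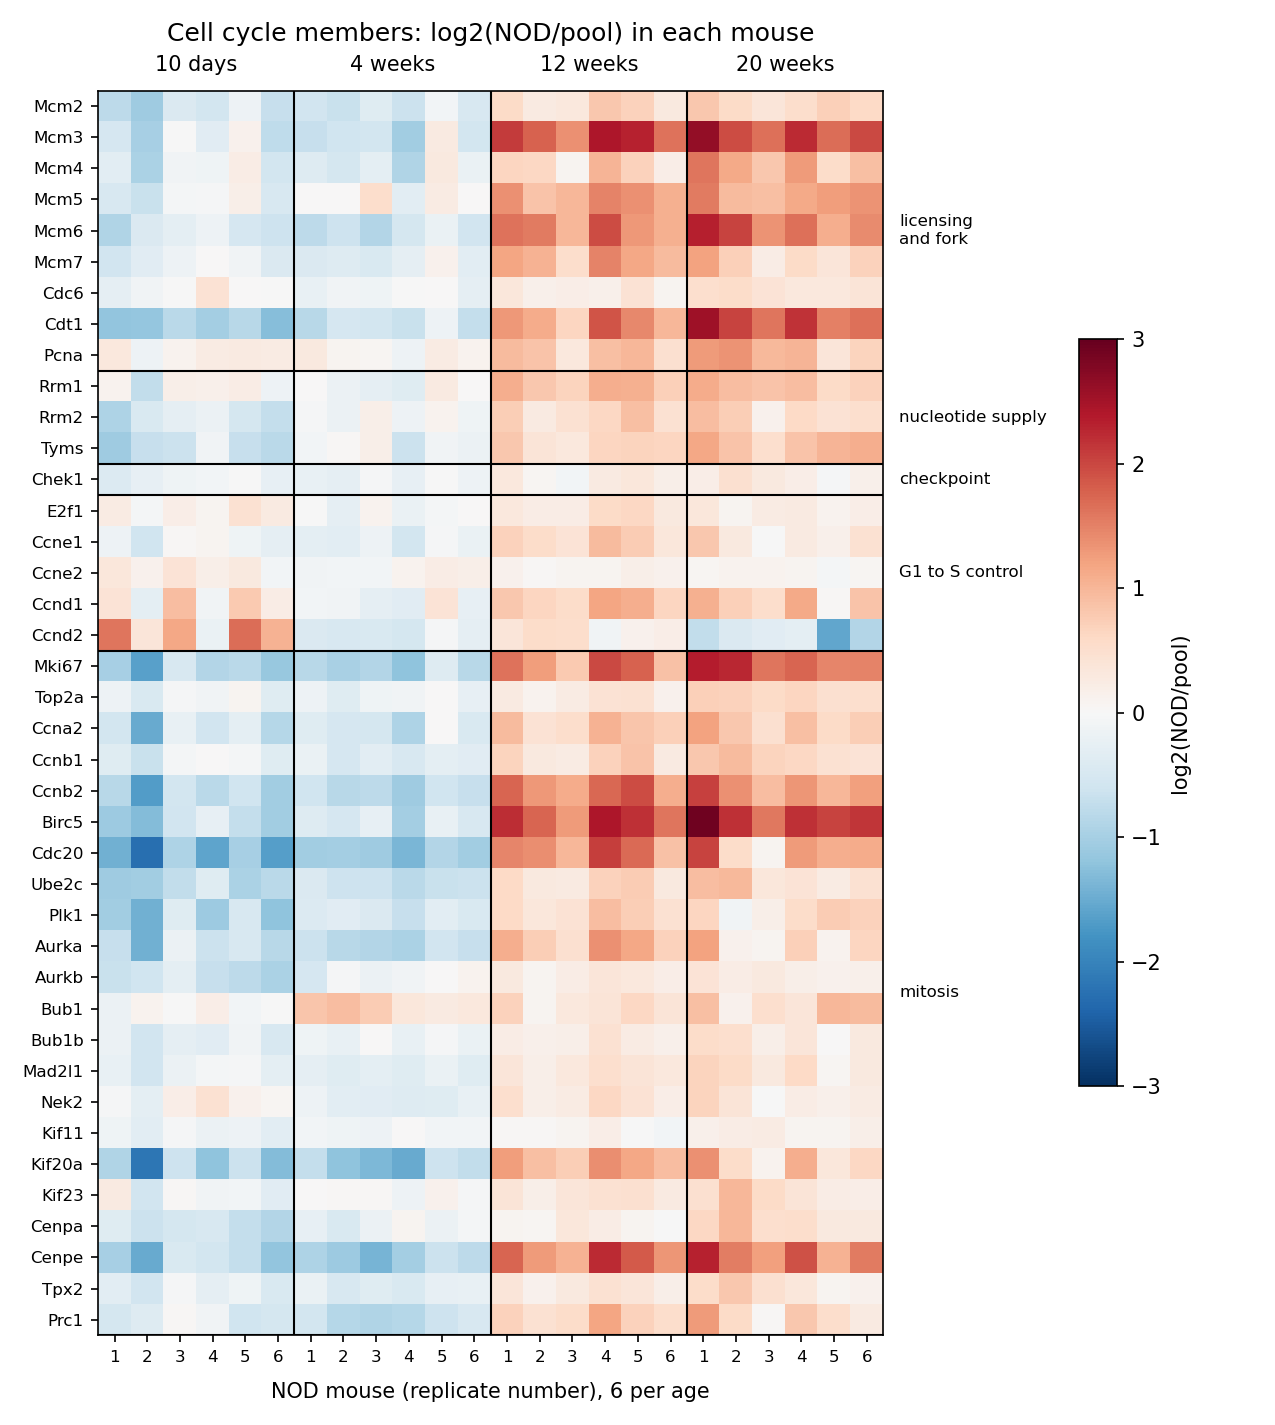
Heat map of log2(NOD/pool) for the 40 genes (rows, by role) in each of the 24 NOD mice (columns, 6 per age); red is above 0 and blue below 0, on a scale from -3 to 3. Mcm3, Mcm6, Cdt1, Mki67, Ccnb2, Birc5 and Cenpe are red in all 12 mice of 12 and 20 weeks, and Ccnd2 alone has a 20 week mean below 0 (-0.71).

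Among the licensing genes, Mcm3, a subunit of the replicative helicase, was called higher at both older ages. Its ratio at 10 days ran from -0.99 to 0.13 (median -0.42) and at 4 weeks from -1.04 to 0.26 (median -0.57). At 12 weeks it ran from 1.37 to 2.43 (median 1.94) and at 20 weeks from 1.65 to 2.64 (median 1.97). No mouse of the 2 older ages overlapped any mouse of the 2 younger ages. The mean was 1.94 ± 0.41 at 12 weeks (3.83-fold, adjusted p = 5.48e-09) and 2.02 ± 0.37 at 20 weeks (4.06-fold, adjusted p = 1.97e-09). Its second probe gave 0.99 and 1.14 at these ages, the same direction at a smaller size, and differed in sign at 10 days (0.30 against -0.41).

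Cdt1, the licensing factor that loads the helicase, was called lower at 10 days and higher at both older ages. It ran from -1.28 to -0.80 at 10 days, from -0.84 to -0.16 at 4 weeks, from 0.65 to 1.88 at 12 weeks and from 1.51 to 2.55 at 20 weeks. The mice of 10 days and 4 weeks overlapped, as did those of 12 and 20 weeks, but all older mice lay above all younger ones. Its mean was -1.04 ± 0.20 at 10 days (adjusted p = 5.23e-07), -0.57 ± 0.23 at 4 weeks, 1.23 ± 0.42 at 12 weeks (2.35-fold) and 1.92 ± 0.40 at 20 weeks (3.77-fold, adjusted p = 1.97e-10). Without 10 day mouse 6 its 10 day ratio was just short of 2-fold, and with median centring it was -0.27, so the 10 day call was lost.

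The other helicase subunits were higher at the older ages at different sizes. Mcm6 ran from 1.01 to 1.96 at 12 weeks (mean 1.42 ± 0.37) and from 1.08 to 2.34 at 20 weeks (mean 1.64 ± 0.46), above every younger mouse, all of which were below 0. Mcm5 ran from 0.86 to 1.49 and from 0.89 to 1.56, with a mean of 1.19 ± 0.25 at both ages, against -0.68 to 0.18 at 10 days and -0.32 to 0.52 at 4 weeks. The highest younger mouse of Mcm5 stayed below the lowest older one. Mcm7 was called at 12 weeks (lowest mouse 0.54, median 1.10, mean 1.06 ± 0.32) but not at 20 weeks (0.63 ± 0.34), and without 12 week mouse 4 its value was 0.97, under 2-fold. Mcm4 was called at 20 weeks (0.56 to 1.60, mean 1.05 ± 0.37) but not at 12 weeks (0.54 ± 0.34), and without 20 week mouse 1 its value was 0.94. Mcm2 had 0.49 ± 0.23 and 0.60 ± 0.16, each past the adjusted p (0.000244 and 1.72e-05) but under 2-fold. Cdc6, which recruits the helicase together with Cdt1, had the lowest 20 week mean of the class, 0.41 ± 0.10.

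Pcna, the sliding clamp, stayed near 0 at the young ages, from -0.14 to 0.31 at 10 days and from -0.15 to 0.28 at 4 weeks. It ran from 0.31 to 1.01 at 12 weeks and from 0.37 to 1.36 at 20 weeks. All 12 older mice were above 0, and the lowest of them (0.31) was level with the highest younger mouse (0.31). The means of 0.75 ± 0.28 (1.68-fold, adjusted p = 5.29e-06) and 0.95 ± 0.37 (1.93-fold, adjusted p = 1.3e-07) were under 2-fold, so Pcna was not called.

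Of the nucleotide supply genes none was called at any age. Rrm1, the large subunit of ribonucleotide reductase, had 0.91 ± 0.20 at 12 weeks and 0.84 ± 0.19 at 20 weeks, above 0 in all 12 mice. Tyms, thymidylate synthase, had -0.67 ± 0.31 at 10 days, 0.58 ± 0.19 at 12 weeks and 0.91 ± 0.24 at 20 weeks. Rrm2, the small reductase subunit, had -0.51 ± 0.28 at 10 days and 0.55 ± 0.27 at 20 weeks, and its pool signal was not well above background at 12 weeks. There the NOD mean was 1.49-fold the higher of the pool's own value and the lowest detected signal of each array (limma adjusted p = 4.05e-05). The plain mean fold was 1.49 as well. The floor thus changed nothing, and the value is an estimate and not a lower limit.

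Of the 5 genes of S phase entry none was called at any age. Ccnd2, cyclin D2, a D cyclin of beta cells, had its highest ratios at 10 days and its lowest at 20 weeks. At 10 days it ran from -0.20 to 1.67 (median 1.10), with mouse 4 alone below 0 and mouse 2 at 0.36. At 4 weeks all 6 mice were below 0, from -0.52 to -0.04, and at 12 weeks they ran from -0.10 to 0.55. At 20 weeks all 6 were below 0 again, from -1.55 in mouse 5 to -0.30. In the order of age the means were 0.94 ± 0.73, -0.37 ± 0.18, 0.28 ± 0.25 and -0.71 ± 0.47; the 10 day and 20 week means passed the adjusted p (0.000133 and 0.0022) but were under 2-fold. Its 3 probes agreed in sign except at 12 weeks, where they gave 0.28, -0.11 and 0.80.

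Ccnd1, cyclin D1, ran from -0.29 to 0.92 at 10 days, from -0.35 to 0.42 at 4 weeks, from 0.56 to 1.17 at 12 weeks and from 0.04 to 1.13 at 20 weeks. Its 12 week mean was 0.82 ± 0.26 (adjusted p = 8.41e-05) and its 20 week mean 0.72 ± 0.40 (adjusted p = 0.00021), both under 2-fold, with 20 week mouse 5 close to 0. Ccne1, cyclin E1, had 0.62 ± 0.22 at 12 weeks and 0.33 ± 0.28 at 20 weeks. A second Ccne1 probe with the same coordinates in the files gave 0.04 and 0.01. E2f1, which drives the genes of DNA synthesis, had 0.20 ± 0.10 at 20 weeks, and Ccne2, cyclin E2, 0.06 ± 0.06 (adjusted p = 0.414). Chek1, the S phase checkpoint kinase, had 0.21 ± 0.17 at 20 weeks.

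Among the mitosis genes, Birc5 (survivin, of the chromosomal passenger complex) was called higher at both older ages. It ran from -1.30 to -0.26 at 10 days (median -0.88), from -1.02 to -0.23 at 4 weeks (median -0.44), from 1.27 to 2.42 at 12 weeks (median 1.97) and from 1.58 to 2.92 at 20 weeks (median 2.17). Every younger mouse was below 0 and every older mouse above 1. The mean was 1.91 ± 0.44 at 12 weeks (3.76-fold, adjusted p = 3.27e-09) and 2.18 ± 0.43 at 20 weeks (4.52-fold, adjusted p = 3.85e-10).

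Mki67, which codes for the proliferation antigen used in pathology, had the same split. It ran from -1.63 to -0.48 at 10 days, from -1.21 to -0.40 at 4 weeks, from 0.78 to 1.98 at 12 weeks and from 1.46 to 2.35 at 20 weeks. All 12 young mice were below 0 and all 12 older mice above 0. Its 10 day mean of -0.99 ± 0.38 (adjusted p = 1.08e-05) lay just under 2-fold, and its mean was 1.38 ± 0.49 at 12 weeks (2.60-fold) and 1.82 ± 0.40 at 20 weeks (3.53-fold, adjusted p = 4.04e-09). A second probe of Mki67 gave -0.12 at 10 days and 1.21 at 20 weeks, so the size of the 10 day difference depends on the probe.

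Cdc20, the activator of the anaphase-promoting complex, was called lower at both young ages and higher at both older ages. It ran from -2.26 in mouse 2 to -0.92 at 10 days and from -1.36 to -0.89 at 4 weeks, with means of -1.48 ± 0.49 (adjusted p = 5.77e-07) and -1.07 ± 0.16 (adjusted p = 5.36e-05). At 12 weeks it ran from 0.88 to 2.08 (mean 1.42 ± 0.44) and at 20 weeks from 0.09 in mouse 3 to 2.02 in mouse 1 (mean 1.02 ± 0.66, adjusted p = 7.13e-05). The 20 week call rested on single mice: the value was 0.82 without mouse 1 and 0.97 without mouse 4, both under 2-fold. With median centring its 10 day value was -0.71, under 2-fold.

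Kif20a, a kinesin of the central spindle, resembled Cdc20. It ran from -2.18 to -0.61 at 10 days, from -1.50 to -0.63 at 4 weeks, from 0.74 to 1.40 at 12 weeks and from 0.12 to 1.36 at 20 weeks. All young mice were below 0 and all older mice above 0. The means were -1.14 ± 0.58, -1.02 ± 0.37, 1.06 ± 0.25 and 0.68 ± 0.47, of which the 20 week one was under 2-fold. Each of its 3 calls was lost when 1 mouse was left out: at 10 days without mouse 2 (-0.94), at 4 weeks without mouse 2 (-0.99), 3 (-0.96) or 4 (-0.93), and at 12 weeks without mouse 4 (just under 2-fold). With median centring its 10 day value was -0.37, under 2-fold.

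Cenpe, a kinetochore kinesin, ran from 1.03 to 2.23 at 12 weeks (mean 1.58 ± 0.44) and from 1.04 to 2.30 at 20 weeks (mean 1.60 ± 0.46), after -1.52 to -0.45 at 10 days and -1.40 to -0.64 at 4 weeks. Ccnb2, cyclin B2, had 1.49 ± 0.37 and 1.31 ± 0.40 at the older ages. Aurka, a centrosome kinase, had 0.92 ± 0.34 at 12 weeks and 0.48 ± 0.45 at 20 weeks, and Prc1, a spindle bundling protein, 0.69 ± 0.27 and 0.58 ± 0.43, all under 2-fold. Plk1, Ube2c and Ccna2, a mitotic kinase, a ubiquitin-conjugating enzyme and cyclin A2, had means between 0.46 and 0.78 at these ages.

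Top2a, which untangles sister chromatids, had a dim pool signal at the older ages. It ran from -0.46 to 0.07 at 10 days, from -0.37 to 0.01 at 4 weeks, from 0.11 to 0.47 at 12 weeks and from 0.47 to 0.72 at 20 weeks. The 20 week mice lay at or above the highest 12 week mouse, and all 12 were above 0. The pool signal was not well above background at either age. The mean fold was 1.21 at 12 weeks (limma adjusted p = 0.00123) and 1.52 at 20 weeks (limma adjusted p = 6.21e-08). Setting the lowest detected signal as a floor for the pool left both unchanged, so they are estimates and not lower limits.

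Dimness limited many of the weaker genes. The pool was not well above background on any array for 15 of the 40 at 12 weeks (10 of them mitosis genes) and for 5 at 20 weeks, all of mitosis. With the lowest detected signal as a floor for the pool, their 12 week folds ran from 1.01 (Kif11) to 1.49 (Rrm2). Ccnb1, cyclin B1, was at 1.42-fold and Mad2l1, of the spindle checkpoint, at 1.27-fold. For Rrm2, Ccnb1 and Mad2l1 these equal the plain mean folds, so they are estimates and not lower limits. For Kif11 (limma adjusted p = 0.488), Ccne2 (0.121) and Cenpa (0.224) the 12 week ratio did not pass the adjusted p, so no excess was shown. The NOD signal of Kif11 and of Ccne2 was well above background on only 3 arrays there. At 20 weeks the folds taken in this way ran from 1.12 (Kif11) to 1.52 (Top2a), with Kif23, of the central spindle, at 1.39. There the NOD signal was well above background on only 1 array for Kif11 and 2 for Aurkb, so both channels were near the floor. At 4 weeks the NOD signal of Kif11 was not well above background on any array. None of the called genes was among them at the age of its call, and no probe of the 40 was saturated. Bub1, a spindle checkpoint kinase, was the 1 gene above 0 past the adjusted p at 4 weeks, at 0.57 ± 0.30 and above 0 in all 6 mice, but its second probe gave -0.38, so its direction is uncertain.

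Between ages, most calls were made for the step from 4 to 12 weeks. Of the 40, 16 had a ratio called higher at 12 than at 4 weeks (background 2.97%) and 0 lower (background 3.07%, 0 at an unadjusted p under 0.05, limma). The differences were 2.56 for Cenpe (SE 0.22, adjusted p = 7.95e-08), 2.49 for Cdc20 (SE 0.26), 2.46 for Mcm3 (SE 0.23), 2.39 for Birc5 (SE 0.22), 2.25 for Ccnb2 (SE 0.20), 2.23 for Mki67 (SE 0.22), 2.09 for Kif20a (SE 0.24), 2.02 for Mcm6 (SE 0.19) and 1.81 for Cdt1 (SE 0.18). The other 7 were Aurka (1.69), Prc1 (1.40), Mcm7 (1.35), Ccna2 (1.21), Ube2c (1.12), Mcm5 (1.11) and Plk1 (1.02). Plk1 fell under 2-fold without 4 week mouse 4 (0.97), 12 week mouse 4 (0.95) or 12 week mouse 5 (0.99). By class, 5 of 12 replication genes and 11 of 22 mitosis genes were called, and no slide held both ages.

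From 10 days to 4 weeks 1 gene was called lower, Ccnd2 (background 3.85%), and 0 higher (background 5.15%, 9 at an unadjusted p under 0.05). The Ccnd2 ratio fell by 1.31 (SE 0.25, adjusted p = 0.000206), and within the slide that held 2 mice of each age the difference was -1.82. Its normalized level in NOD did not fall over this step: it rose by 0.59, while that of the pool, 1 sample per age, rose by 1.90. From 12 to 20 weeks 0 were called in either direction by limma (background 2.01% higher and 0.404% lower), with 6 higher and 4 lower at an unadjusted p under 0.05. Past the adjusted p but under 2-fold, Cdt1 (0.68, SE 0.18, adjusted p = 0.00783), Cenpa (0.41) and Top2a (0.33) were higher. Ccnd2 (-0.98, SE 0.25, adjusted p = 0.0062) and Mcm7 (-0.43) were lower. Within the slide that held both ages the differences were 1.06 for Cdt1, 0.78 for Cenpa, 0.41 for Top2a, -0.74 for Ccnd2 and only -0.08 for Mcm7. For Ccnd2 the mean normalized NOD level was 12.09 at 12 weeks and 12.10 at 20 weeks, while the pool was at 11.81 and then 12.80.

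The channels were also read apart. Normalized log2 levels are set only against the same probe at another age. The pool level was highest at 10 days for 36 of the 40 and lowest at 20 weeks for 36, against 6252 and 4022 of all 18085 genes. The NOD level was lower at 4 weeks than at 10 days for 38 of the 40, against 9334 of all genes. It was higher at 12 weeks than at 4 weeks for 38, against 7458 of all genes. The pool was lower at 12 than at 4 weeks for 35, against 10498 of all genes. With median scaling of each channel in place of quantile scaling these 5 counts were 35, 33, 38, 35 and 30 of the 40. For all genes they were then 4991, 3357, 9449, 8371 and 9526. With quantile scaling the median step of the 40 from 4 to 12 weeks was 0.45 in NOD and -0.38 in the pool. For all genes it was -0.06 in each channel. From 10 days to 4 weeks the median step of the 40 was -0.75 in NOD and -0.77 in the pool. For all genes it was -0.01 in NOD and 0.03 in the pool. The pool is 1 sample per age, so its steps have no test. For 15 of the 40 the 12 week pool signal was not well above background on any array, so the size of their pool steps to 12 weeks is uncertain.

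Mcm3 is an example: the pool mean was 10.93 at 10 days and then 9.38, 8.68 and 8.01, while the NOD mean was 10.52, 8.85, 10.62 and 10.03. For Cdc20 and Kif20a the fall of the pool between 4 and 12 weeks (-1.55 and -1.52) was larger than the NOD step (0.95 and 0.57). For Cdt1 and Mcm4 the NOD step (1.94 and 1.37) was the larger, and the pool step was 0.14 and 0.48, upward as well. Prc1 and Aurka had NOD steps of 0.09 and 0.35 against pool steps of -1.31 and -1.34.

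**Figure D2:**
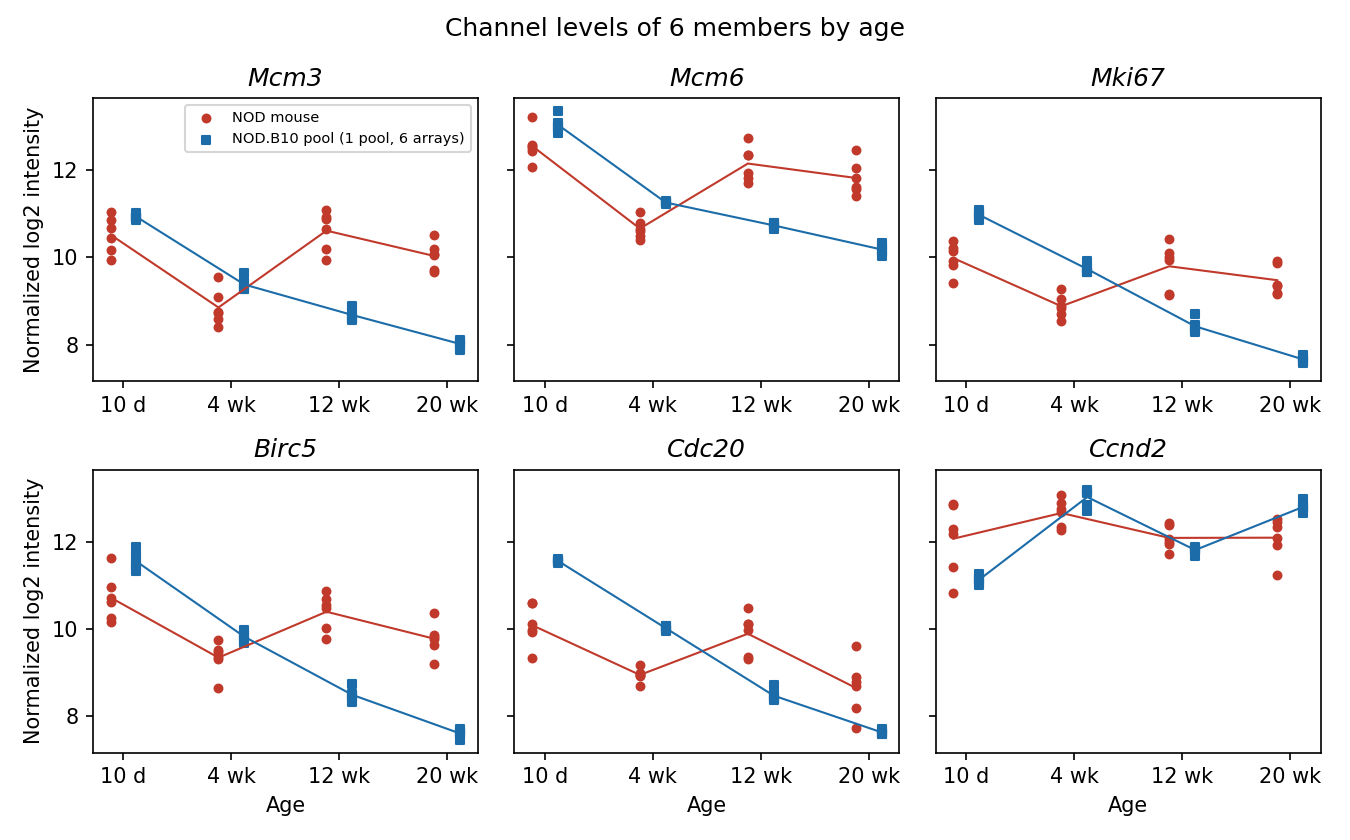
Normalized log2 intensity (y axis) by age (x axis) for 6 genes, with a red circle per NOD mouse, a blue square per array of the pool (1 pool per age on 6 arrays) and lines through the means. The Mcm3 pool goes from 10.93 to 8.01 while NOD goes from 8.85 at 4 weeks to 10.62 at 12 weeks, and the pool of Ccnd2 is lowest at 10 days.

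In the NOD channel alone, 13 of the 40 were called lower at 4 weeks than at 10 days (background 1.5%) and 0 higher (background 1.84%, 2 at an unadjusted p under 0.05, limma). They were 6 replication genes and 7 mitosis genes. The differences were -1.90 for Mcm6 (SE 0.19, adjusted p = 7.43e-07), -1.67 for Mcm3, -1.46 for Cenpe, -1.44 for Mcm4, -1.40 for Prc1 and -1.38 for Birc5. For Cdt1, Tyms, Ccnb2, Mcm7, Cdc20, Mki67 and Ccna2 they lay between -1.30 and -1.02. Ccna2 was under 2-fold without 10 day mouse 3 (-0.93), 4 (-0.99) or 5 (-0.94), or 4 week mouse 4 (-0.94) or 2 (just under). At 20 against 4 weeks 4 genes were called higher (background 4.15%): Cdt1 (1.90, SE 0.17, adjusted p = 1.27e-07), Mcm3 (1.18, SE 0.22), Mcm6 (1.16, SE 0.19) and Mcm4 (1.04, SE 0.21). With median scaling of the channel 2 were called (4.05% of all genes), Cdt1 (1.79) and Mcm3 (1.01), while Mcm6 (0.86) and Mcm4 (0.81) were under 2-fold. All 4 are licensing and fork genes, and 0 of the 40 were called lower (background 1.22%, 3 at an unadjusted p under 0.05). Mcm4 was under 2-fold without 4 week mouse 2 (0.99) or 4 (0.93), or 20 week mouse 1 (0.93) or 4 (0.99).

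As classes, replication and mitosis genes had medians below 0 at 4 weeks and above 0 at 12 and 20 weeks with loess, median centring and the scanner signals. At 10 days median centring gave 0.39 for replication and -0.04 for mitosis, beside 0.38 for all genes, where loess put both classes below 0. With loess the median ratio of the 12 replication genes was -0.36, -0.21, 0.83 and 0.93 at the 4 ages, and that of the 22 mitosis genes -0.63, -0.40, 0.50 and 0.57. At 12 and 20 weeks the mitosis median lay below the replication median in all 12 mice, but with the scanner software's own signals the order of the class medians was the other way, 1.77 against 1.38 at 12 weeks and 1.66 against 1.22 at 20 weeks. Beside this, the pool was not well above background at 12 weeks for 10 of 22 mitosis genes and 2 of 12 replication genes; the part of that in the order was not tested. No order of the classes is therefore read from these arrays, and no test was made.

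**Figure D3:**
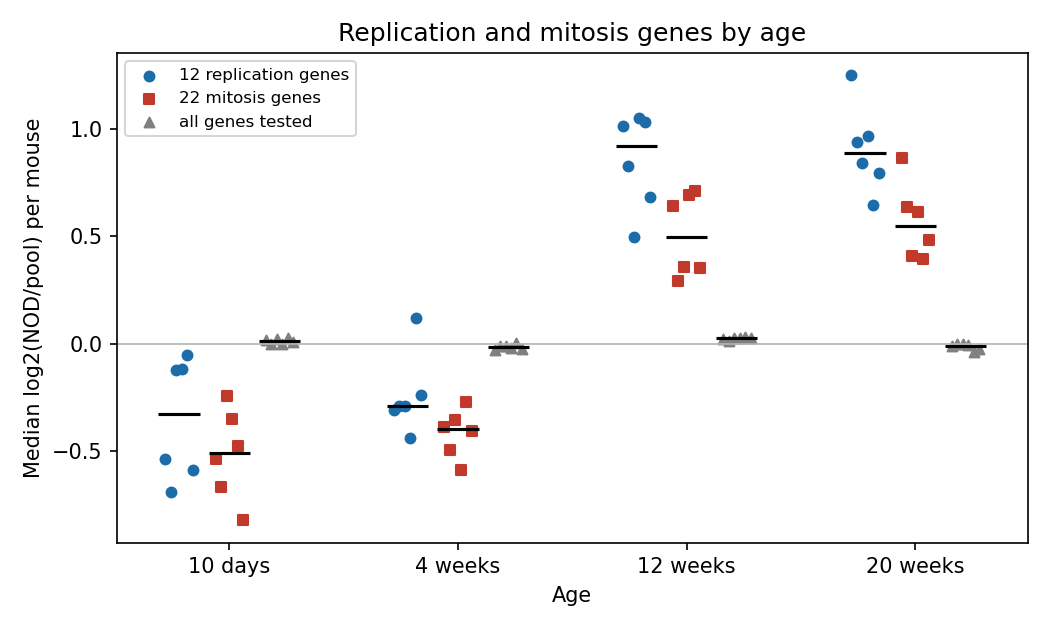
Median log2(NOD/pool) of the 12 replication genes (blue circles), the 22 mitosis genes (red squares) and all genes tested (grey triangles), with 1 point per mouse and a bar at the median of the 6 mice of an age. In all 12 mice of 12 and 20 weeks both classes are above 0, the replication medians from 0.50 to 1.25, while the medians of all genes stay near 0.

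Other genes of the cycle, from a list of 80 of which 77 were measured, followed the same ages. Lower at 10 days were 4 of the 77 (Cks2, Incenp, Cdca3, Tk1; 2.36% of all genes) and higher 0 (1.61%), with 4 at an unadjusted p under 0.05 in limma. At 4 weeks 0 were called in either direction (1.91% higher and 0.879% lower among all genes; 6 higher and 53 lower at an unadjusted p under 0.05 in limma). Higher at 12 weeks were 9 (2.09% of all genes), among them Stmn1, a microtubule regulator (1.84 ± 0.36), Incenp, which anchors the complex of Birc5 (1.66 ± 0.36), and Cdca8, of the same complex (1.55 ± 0.32). Higher at 20 weeks were 10 (3.87% of all genes), among them Uhrf1, which maintains methylation behind the fork (1.54 ± 0.51), and Pttg1, securin (1.45 ± 0.33). At 12 against 4 weeks 23 were higher (2.97% of all genes) and 1 was lower (3.07%), Cdkn1a, an inhibitor of cyclin-dependent kinases (-1.43, SE 0.31, adjusted p = 0.00117). Cdkn1a was then the 1 gene of the 77 called at 20 against 12 weeks, where it was higher (1.05, SE 0.31, adjusted p = 0.0151; 2.01% of all genes). From 10 days to 4 weeks the only ratios of the 77 called higher were those of Cdkn1c, another inhibitor (1.41, SE 0.13), and Cdk6 (1.12, SE 0.12). The only ones called lower were those of Spc25 (-1.52) and Orc6 (-1.22). In each direction that is a smaller share than among all genes (5.15% higher and 3.85% lower).

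Markers of immune cells differed at the same ages. At 10 days 3 of 7 B cell markers measured were lower. Their summed intensity there was 542 to 5440 in NOD against 3580 to 3690 in the pool. Of 7 macrophage and dendritic cell markers 1 was lower at 10 days, and of 9 T cell markers 0 were called. Of 9 T cell markers 1 was higher at 4 weeks, 7 at 12 weeks and 8 at 20 weeks. Their mean ratio per mouse ran from 1.54 to 2.56 at 12 weeks and from 1.61 to 3.19 at 20 weeks. Their summed intensity in NOD was 7180 to 18000 at 12 weeks and 4010 to 14000 at 20 weeks, against 1850 to 2920 and 1100 to 1560 in the pool. Of 7 B cell markers measured, 5 were higher at both ages, with summed NOD intensities of 8120 to 31200 and 3830 to 29600 against pool ranges of 2700 to 3240 and 2440 to 2680. Of 7 macrophage and dendritic cell markers, 3 were higher at 12 weeks and 5 at 20 weeks, with summed NOD intensities of 19300 to 46700 and 23000 to 55000 against 18400 to 23300 and 8460 to 9520 in the pool. The mouse with the highest replication median at each older age, 12 week mouse 4 (1.05) and 20 week mouse 1 (1.25), also had the highest T cell mean of its age (2.56 and 3.19). The lowest T cell means, in 12 week mouse 3 (1.54) and 20 week mouse 5 (1.61), went with the lowest replication medians (0.50 and 0.65). At 20 weeks the mitosis median was also highest in mouse 1 (0.86) and lowest in mouse 5 (0.39). At 12 weeks it was highest in mouse 5 (0.71) and lowest in mouse 2 (0.29). The B cell mean was highest in the same mice as the T cell mean (2.26 and 2.43). In 20 week mouse 1 the macrophage and dendritic cell (2.31) and stellate (1.79) means were the highest of that age too. At 12 weeks both were highest in mouse 5 (1.45 and 1.59). The lowest 12 week B cell (0.90) and macrophage and dendritic cell (0.75) means were in mouse 6, and the lowest stellate mean (0.67) in mouse 3. At 20 weeks the B cell, macrophage and dendritic cell, and stellate means were lowest in mouse 5 (0.36, 1.06 and 0.58). The part of these markers in the results was not tested.

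Other tissue markers moved too. Of 5 stellate cell and fibroblast markers all 5 were lower at 10 days, with a summed intensity of 4060 to 16900 in NOD against 35100 to 40800 in the pool, and 2 and 3 were higher at 12 and 20 weeks. Of 4 endothelial markers 2 were lower at 10 days. Of 8 beta cell markers 5 were higher at 10 days, 3 were lower at 4 weeks, 3 at 12 weeks and all 8 at 20 weeks. At 20 weeks their mean ratio was lowest in mouse 5 (-3.42), where the acinar mean was highest (2.15). Of 7 acinar markers 2 were higher and 1 lower at 10 days, and 6 were higher at 4 weeks. Of 5 duct markers 2 were higher at 4 weeks and 2 were lower at 12 weeks, where their mean ratio ran from -1.48 to -0.81 and their summed intensity was 12400 to 29800 in NOD against 53700 to 60400 in the pool. Of 2 erythroid markers measured 1 was higher at 4 weeks. Trat1, of the T cell list, and Cr2, of the B cell list, were not above background in NOD on any 4 week array. Their part in the ratios was not tested either. Without 20 week mice 5 and 6 together, a choice made after seeing the data, the 20 week count stayed at 10 higher (5.19% of all genes).

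**Figure D4:**
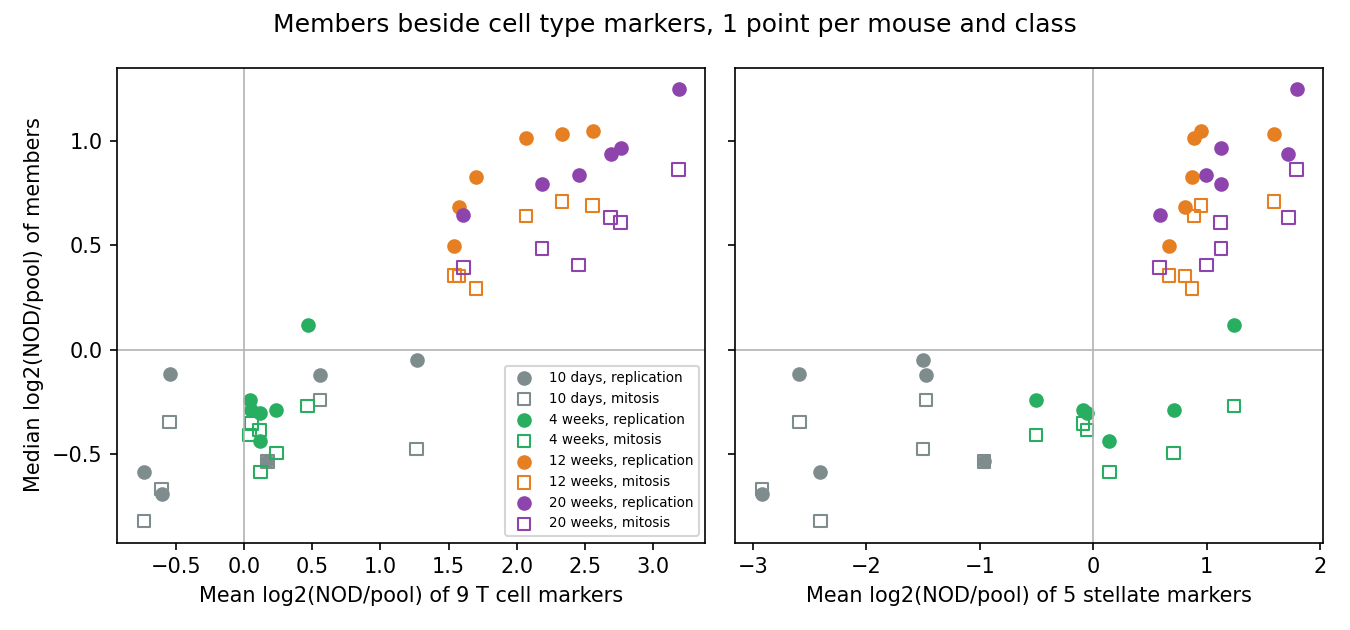
Median log2(NOD/pool) of the 12 replication genes (filled circles) and 22 mitosis genes (open squares) per mouse on the y axis, against the mean ratio of 9 T cell markers (left) and 5 stellate cell and fibroblast markers (right) of the same mouse; colours give the age. The 12 and 20 week mice lie at T cell means of 1.54 or more, and the 10 day mice at stellate means of -0.96 or less.

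How many genes were called depended on the handling of background and dye bias. With the scanner software's own signals 33 of the 40 were higher at 12 weeks and 26 at 20 weeks, where 11.6% and 8.18% of all genes were called higher, and the deposited table gave 31 and 24 (10.2% and 7.21%). With each array centred on its median instead of loess, 25 were higher at 12 weeks (23.5% of all genes) and 6 at 20 weeks (2.5%). That centring moved the median of all genes to 0.38, -0.15, 0.50 and -0.21 in the order of age. In the same order 13, 6, 30 and 39 of the 40 lay above those medians, against 6, 5, 40 and 39 with loess. At 10 days median centring put 27 of the 40 above 0 and called none lower (0.293% of all genes). Cdc20 was at -0.71, Kif20a at -0.37 and Cdt1 at -0.27. The direction against 0 at 10 days thus depends on the normalization, while most of the 40 lay below the median of all genes either way.

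**Figure D5:**
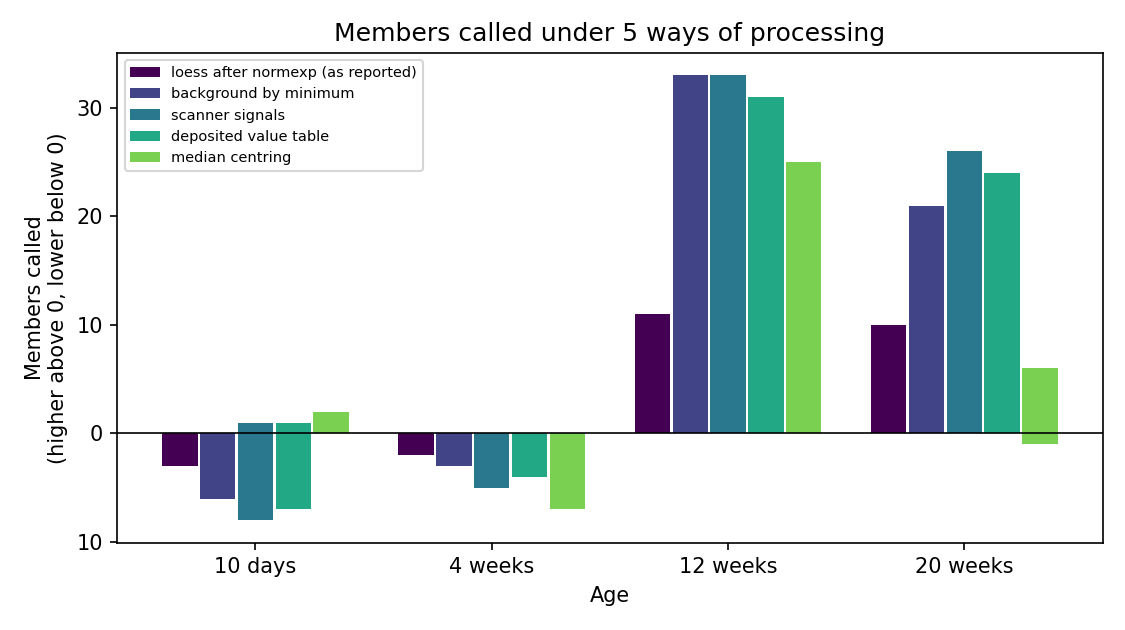
Number of the 40 genes called higher (bars above 0) and lower (bars below 0) in each age under 5 ways of processing; the y axis counts genes and the first bar of each group is the processing used in the text. Bars at 12 weeks range from 11 higher (2.09% of all genes) to 33 higher (11.6% with scanner signals, 11.2% with background by minimum). Median centring alone gives no lower call at 10 days (0.293% of all genes).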

How the data were processed

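Per the file headers, the spot intensities of both channels on the 24 arrays (Agilent, design 014868) were extracted by the authors with Feature Extraction 10.7.3.1, which also gives a log10 ratio; coordinates are mm9. The deposited table of the authors holds log2 ratios, NOD over pool, not centred (array medians -0.181 to 0.086), that matched the scanner ratios (r at least 0.9998). Here signals were background corrected (normexp, offset 50) and normalized by loess in R 4.3.3 with limma 3.58.1; flagged spots were set to missing (43 ratios). Of 41174 probes 25931 passed the filter (well above background in a channel on at least 6 arrays), and the brightest probe stood for each gene. Probes were named by RefSeq accession (27050), current symbol (4154), older symbol (589) or the name in the files alone (9381). One limma fit with a mean per age gave all tests of ratios; channel levels had a quantile step (Aquantile) and their own fit. Arrays were on 6 slides, of which 2 held 2 ages each. The range over mice is given for Mki67, Top2a, Mcm3, Pcna, Birc5, Ccnd1, Ccnd2 and the 3 highest and 3 lowest called genes of each age; of other cell cycle genes up to 4 per direction are named. Members, lists and tests were chosen with earlier results of these data known. The fit was tested on simulated data. Alternatives were median centring, scanner signals, the deposited table, other filters, the mean of probes, another background correction, slide and replicate blocks, and leaving out each mouse.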

Additional observations from a re-analysis of the deposited data

Results flagged for a closer look

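In 6 of 160 groups of 6 mice (chance gives about 1 in 20) the log2 ratio of 1 mouse lay apart from the other 5. At 4 weeks mouse 5 was high for Mcm7 (0.14, next -0.26) and Ccnd1 (0.42, next -0.08), and mouse 4 was low for Birc5 (-1.02, next -0.51). At 12 weeks mouse 4 was high for Bub1b (0.46, next 0.25) and Prc1 (1.19, next 0.69). At 20 weeks mouse 5 was low for Ccne2 (-0.07, next 0.05). The ratio differed between ages, by limma's contrast, in 1 gene for 4 weeks against 10 days (Ccnd2) and in 16 genes for 12 against 4 weeks.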

How the results depend on the processing

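No called value changed its sign under the alternatives run. Leaving out the filter, requiring signal in both channels and the replicate block gave no count outside 1.5 times the reported one. Same-numbered mice of different ages shared only a number (median r of their deviations -0.104; 11 of 36 pairs above 0.1; 1 of 24 arrays correlated best with its own number). The replicate block gave 11 higher at 12 weeks, 10 at 20 weeks and 16 at 12 against 4 weeks, as reported. In the counts that follow, brackets give the share of all genes called the same way. Median centring gave 2 higher (14.9%) and 0 lower (0.293%) at 10 days, 7 lower at 4 weeks (3.57%) and 25 higher at 12 weeks (23.5%). At 20 weeks it gave 6 higher (2.5%) and 1 lower (7.59%). From 10 days to 4 weeks it called 14 lower (32%). At 12 against 4 weeks it called 28 higher (39.1%), and at 20 against 12 weeks 18 lower (42.3%). Scanner signals gave 1 higher (8.92%) and 8 lower (7.17%) at 10 days and 5 lower at 4 weeks (5.02%). They gave 33 higher at 12 weeks (11.6%) and 26 higher at 20 weeks (8.18%). At 12 against 4 weeks 34 were higher (14.5%), and at 20 against 12 weeks 3 were lower (9.38%). The deposited table gave 1 (8.4%), 7 (7.1%), 4 (3.97%), 31 (10.2%), 24 (7.21%), 32 (12.6%) and 3 (7.7%) for the same counts. Another background correction (minimum) gave 6 lower at 10 days (4.67%), 33 higher at 12 weeks (11.2%) and 21 higher at 20 weeks (7.04%). It gave 34 higher at 12 against 4 weeks (11.8%) and 3 lower at 20 against 12 weeks (6.71%). The mean of probes gave 1 lower at 4 weeks (0.553%) and 1 lower at 20 against 12 weeks (0.293%). The slide as a block also gave 1 lower at 20 against 12 weeks (0.542%). In the NOD channel, median scaling gave 2 higher at 20 against 4 weeks (4.05%). The scanner signal scaled to its 75th percentile gave 29 lower at 4 weeks against 10 days (8.22%) and 1 lower at 20 against 4 weeks (8.22%). The cause of these moves was not tested.

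Leaving out each mouse in turn gave 0 to 1 higher and 2 to 5 lower at 10 days, 1 to 3 lower at 4 weeks, 9 to 12 higher at 12 weeks, 8 to 11 at 20 weeks, 15 to 20 at 12 against 4 weeks, 1 lower throughout at 4 weeks against 10 days and 0 to 1 lower at 20 against 12 weeks. In the NOD channel it gave 12 to 15 lower at 4 weeks against 10 days and 3 to 4 higher at 20 against 4 weeks. The number of arrays and the signal of the 12 week pool over background limit the precision of the dim genes.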
